A study of Mus musculus with 9 samples.

Results

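The transcripts examined here are those of the subunits of the 5 complexes of mitochondrial oxidative phosphorylation, taken by gene symbol from an RNA sequencing table of mouse spleen-derived monocytes. Of 98 matching names, 93 had at least 10 counts over the 9 libraries and were kept as members, out of 26770 gene rows. Of these 93, 80 are encoded in the nucleus and 13 in the mitochondrial genome. The 80 nuclear genes comprise 35 of complex I, 4 of complex II, 8 of complex III, 16 of complex IV, 16 of complex V, and Atp5s, which carries the family's name but is not a subunit. The names under the minimum were Cox8b, Cox8c, Cox7b2 and a second Atp5o entry, all at 0, and Ndufa4l2 with 6 counts. A total of 0 over 304985551 counts allows up to 0.00984 counts per 1000000 (3 counts), a limit for counting error only. A low-count filter passed 91 members, 78 of them nuclear, and left out Cox4i2 and Cox7a1.

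All cells were wild-type mouse spleen-derived monocytes, and RNA was extracted as total RNA for mRNA libraries. Untreated cells received DMSO, labelled 1 in 1000, 1001 and 1002 for replicates 1, 2 and 3. LPS cells, which received the bacterial lipopolysaccharide that stimulates Toll-like receptor signalling, were given 40 ng/ml for 5 h. The last group was primed with low-dose LPS and then given 20 µM octanal, an aldehyde that activates some olfactory receptors, with times labelled 18, 19 and 20 h for replicates 1, 2 and 3. The series text gives a single octanal time, 18 h, and a single DMSO dilution, 1 in 1000, so whether the replicates really differed in these is uncertain. The labels give no LPS dose in figures for the last group. Octanal, the LPS dose and the time since LPS therefore cannot be told apart in the comparison of the last group with LPS. DMSO is labelled for untreated cells only, so its part in LPS against untreated cannot be told apart from that of LPS. The sources used here do not give the age, sex or number of animals, nor whether replicates came from separate cultures, so the p-values measure the spread between these libraries, which may be technical.

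Complexes I, III and IV pass electrons from NADH and ubiquinol to oxygen and pump protons, complex II feeds electrons from succinate into ubiquinone, and complex V uses the proton gradient to make ATP. Some core subunits of complexes I, III and IV and part of the proton channel of complex V are made inside mitochondria from mitochondrial genes. All of complex II and most other subunits, including 7 core subunits of complex I, are encoded in the nucleus and imported. In macrophages and monocytes, LPS is known to shift metabolism towards glycolysis and to alter electron flow through complexes I and II.

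Library depth was 29594291 to 38388421 counts. Levels are given as CPM, counts per 1000000 scaled by edgeR's TMM factors, and differences as log2 fold changes from edgeR's quasi-likelihood test, with p-values adjusted by the Benjamini-Hochberg method over all 15447 genes tested. A gene was called when its adjusted p was below 0.05. Markers of neutrophils, macrophages, T cells and other types were also detected and differed between groups. Untreated replicate 1 stood apart from the other untreated libraries for the nuclear members, and LPS replicate 2 stood apart for the mitochondrial ones. In bulk RNA, fewer cells of a type and less RNA per cell cannot be told apart.

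Per transcript length, the mitochondrial genes were far above the nuclear ones. The mean FPKM (fragment counts scaled for transcript length and library depth) over 9 libraries ran from 387 for mt-Nd3 to 6391 for mt-Co1. Among nuclear subunits the median FPKM was 27.7 for complex I, 57.6 for complex II, 44.6 for complex III, 54.9 for complex IV and 73.5 for complex V. Atp5b, the catalytic beta subunit of the ATP synthase head, had the highest nuclear FPKM, 268. Cox4i1, the ubiquitous form of subunit 4 of cytochrome c oxidase, reached 252. The leading members of the other complexes were Uqcrh at 93.0, Ndufa6 at 70.3 and Sdhd at 67.0. Lowest of all was Cox4i2, at a mean FPKM of 0.0464. The nuclear subunits thus spanned several orders of magnitude, and the low end of complex IV was made up of tissue-restricted forms.

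**Figure D1:**
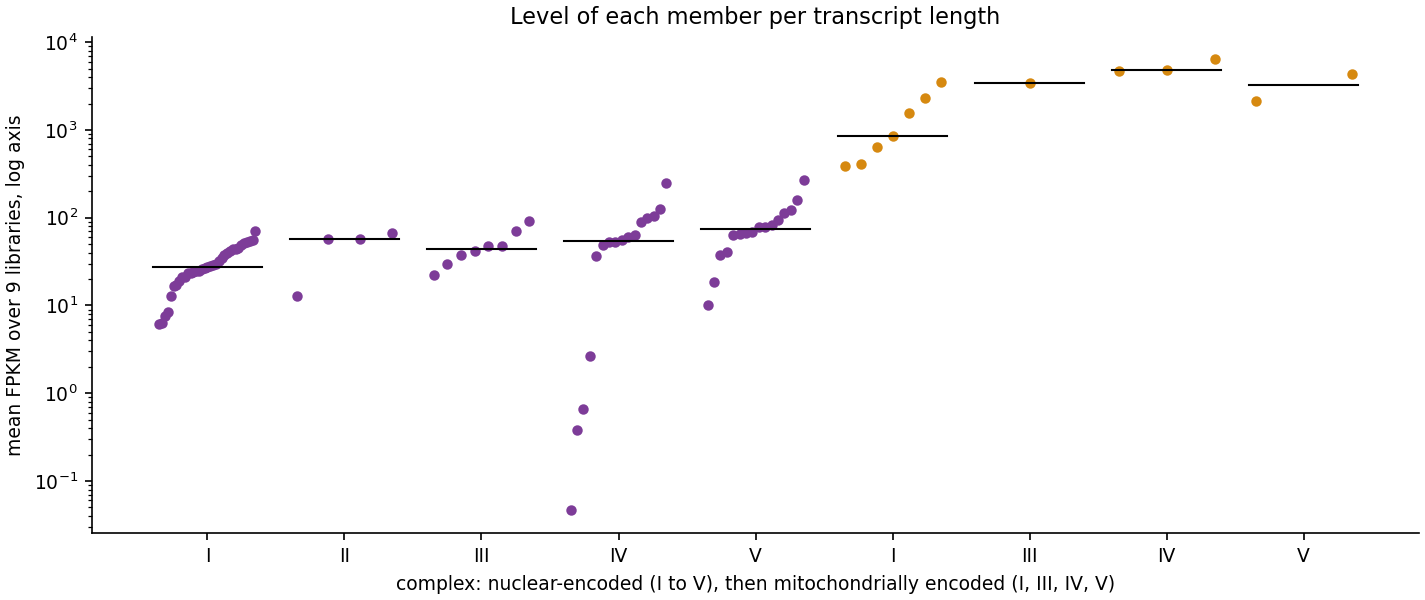
Mean FPKM over the 9 libraries on a log axis for each member, by complex and genome of origin; each point is a gene and each line the median. Every mitochondrially encoded gene lies above every nuclear one, from mt-Nd3 at 387 upwards, with Atp5b the highest nuclear gene at 268.

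Several subunits of complex IV have paralogues, and here the general form of each set was well above the tissue-restricted one. Cox4i1 lay between 161 and 248 CPM in every library, while Cox4i2, the form of lung and other oxygen-sensing tissue, did not exceed 0.132 CPM and was at 0 in 5 libraries. Cox7a1, the heart and muscle form, did not exceed 0.363 CPM, whereas Cox7a2, the form found in most tissues, was tested and gave a log2 fold change of -0.32 ± 0.17 (SE) with LPS. Cox6a2, another muscle form, did not exceed 0.97 CPM. The general forms Cox6a1 and Cox8a had log2 fold changes of -0.20 ± 0.11 and -0.36 ± 0.13, neither called (adjusted p = 0.174 and 0.0662). Cox6b2, known from testis, had a log2 fold change of 0.08 ± 0.45, too imprecise to give a direction.

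Promoter sequences from RefSeq on GRCm38.p6, 250 bases before to 50 after the annotated start, were found for 64 of the 80 nuclear members. They were searched on both strands for the NRF1 consensus (its 10 letters, 1 of them free, are the capitals in the stretches marked NRF1), CCGGAAG (the ETS core bound by GABP) and AAGATGGC (the YY1 site), 3 factors long associated with respiratory chain genes. The NRF1 letters were in 17 of the 64 (26.6%), against 5.19% of all 27025 genes in the collection and 11.0% of the 10535 tested genes with a promoter. The ETS letters were in 16 (25%), against 9.93% and 19.3%. The YY1 letters were in 9 (14.1%), against 3.19% and 5.03%. The stretches shown are from members that were lower after LPS, with the motif in capitals and each stretch read 5′ to 3′ on the gene's strand. In those shown, the NRF1 and ETS letters start before the transcription start in subunits of different complexes, and the YY1 letters lie after it. This position is not general for the ETS letters. In called-lower members not shown, they lay 16, 7 and 25 bases after the start in Ndufs8, Sdhb and Atp5l. Atp5l also held them 212 bases before it.

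Sdhd, NRF1 letters starting 79 bases before the start, chr9:50603909-50603938, minus strand: tcgctggggtGCGCACGCGCggtggcagcg
Sdhd, ETS letters starting 46 bases before the start, chr9:50603877-50603906, minus strand: ccgtctcctgcCTTCCGGttcacgcttcag
Ndufa8, NRF1 letters starting 30 bases before the start, chr2:36049349-36049378, minus strand: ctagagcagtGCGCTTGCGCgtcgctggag
Atp5c1, NRF1 letters starting 17 bases before the start, chr2:10080430-10080459, minus strand: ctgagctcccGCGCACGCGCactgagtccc
Cox6b1, ETS letters starting 28 bases before the start, chr7:30626124-30626153, minus strand: tcctctcgcagCTTCCGGccagtcggaatt
Ndufb7, ETS letters starting 20 bases before the start, chr8:83566727-83566756, plus strand: gcctagatgacCCGGAAGacactgaagggg
Atp5j2, YY1 letters at base 24 after the start, chr5:145191500-145191529, minus strand: accaggacttcAAGATGGCgtcactcggtg

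Members that fell and members that were not called both held these letters. Of the 14 called-lower members with a promoter sequence, 3 held the NRF1 letters, 6 the ETS letters and 2 the YY1 letters. Of the 50 other nuclear members the counts were 14, 10 and 7. A match is a description of the sequence, and binding was not measured.

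LPS against untreated cells asks how a short exposure to LPS changed these transcripts. The 2 genomes moved in opposite directions. Among the 78 tested nuclear members, 20 fell (25.6%) and 1 rose (1.28%), against 17.6% and 15.2% of all genes tested (32.8% in either direction). Of the 78, 72 had a negative log2 fold change, against 49.3% of all genes, and the median was -0.31, against 0.01 for all genes tested. In 40 of the 78 all 3 LPS libraries were below all 3 untreated libraries (51.3%, against 24.8% of all genes). Among the 13 mitochondrial genes, 4 rose and 0 fell, all 13 had a positive log2 fold change (50.7% of all genes did), and the median was 0.94. All 3 LPS libraries exceeded all 3 untreated ones for 5 of the 13 (38.5%, against 26.7% of all genes).

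**Figure D2:**
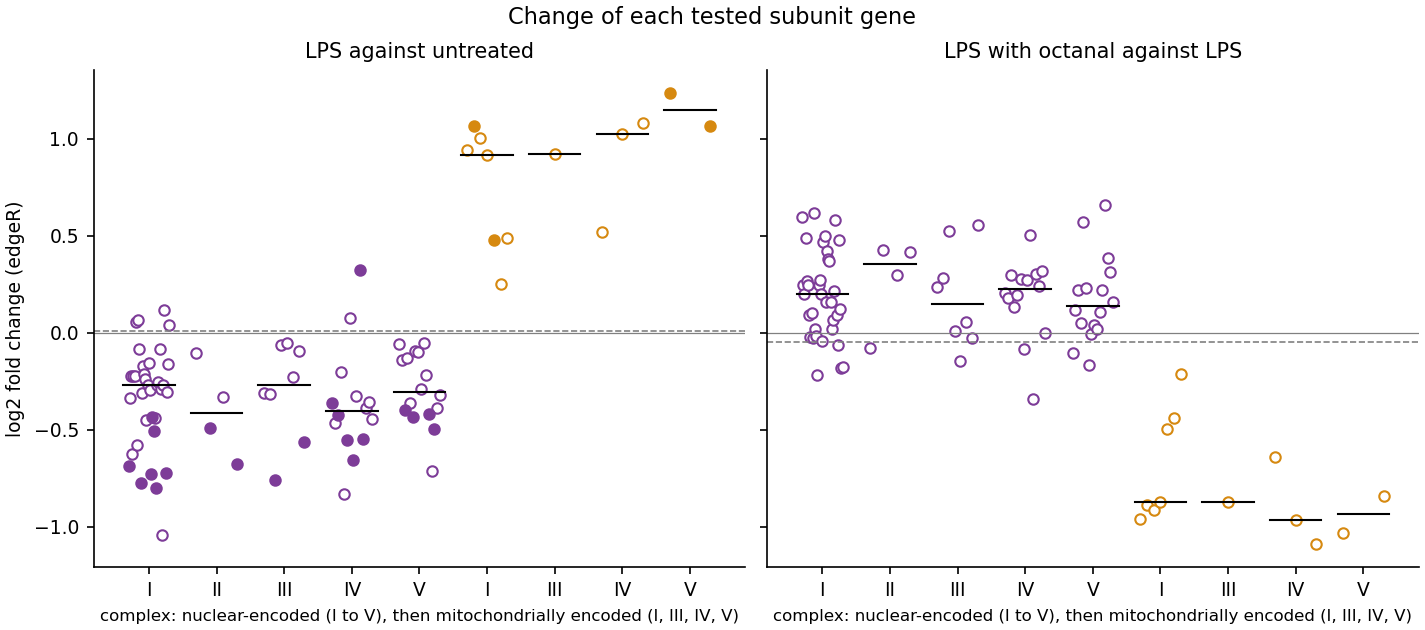
Log2 fold change of each tested subunit gene by complex and genome of origin, for LPS against untreated (left) and LPS with octanal against LPS (right); filled points were called at adjusted p below 0.05, solid lines are medians and the dashed line is the median of all genes tested. On the left the nuclear median is -0.31 and the mitochondrial median 0.94; on the right, where both comparisons share the LPS libraries, they are 0.20 and -0.87 with 0 genes called.

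Complex I, the NADH dehydrogenase, had 7 of its 35 nuclear members lower and 0 higher, with a median of -0.27. Its share lower, 20.0%, was near the 17.6% of all genes tested. For the few tested nuclear members of complexes II, III, IV and V (4, 8, 14 and 16) the shares lower were 50%, 25%, 35.7% and 25%. Ndufs8, a core subunit that holds iron-sulphur clusters of the electron path, was at 76.8, 64.6 and 51.9 CPM in untreated cells, 40.7, 33.3 and 43.1 with LPS, and 55.5, 51.5 and 55.9 with LPS and octanal. All LPS libraries lay below all others, and the log2 fold change with LPS was -0.72 ± 0.15 (SE, adjusted p = 0.00965). Ndufs8 was the single core subunit called among the 7. The flavoprotein Ndufv1, where NADH is oxidised, had -0.30 ± 0.12 (adjusted p = 0.0901), and Ndufs7, next to the quinone site, had 0.12 ± 0.10.

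The other 6 complex I calls were accessory subunits, out of 28 tested. Ndufc2, a small membrane subunit, was at 38.7, 23.5 and 21.0 CPM untreated and 15.7, 16.3 and 15.8 with LPS, a log2 fold change of -0.80 ± 0.22 (adjusted p = 0.0236). Untreated replicate 1 was high for this gene, and without it the log2 fold change was -0.51. Ndufa8, an intermembrane-space subunit, was at 59.9, 39.3 and 77.8 CPM untreated and 34.5, 38 and 30.9 with LPS (-0.78 ± 0.23, adjusted p = 0.0337). Its untreated libraries were widely spread, but the groups did not overlap. Ndufb7 fell by 0.73 and Ndufa1, a subunit needed for assembly of the membrane arm, fell by 0.69 on the log2 scale (adjusted p = 0.0117 and 0.00955). Ndufb9 and Ndufb8 fell by 0.51 and 0.43. Ndufa6, the complex I member of highest FPKM, was level at 40.8, 43.0 and 39.3 CPM untreated against 40.3, 44.2 and 44.6 with LPS. The widest scatter was in Ndufs5, with 1.10 CPM in LPS replicate 2 against 14.4 and 15.8 in the other LPS libraries, so its -1.04 ± 0.73 was not called.

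Complex II, succinate dehydrogenase, is also an enzyme of the citric acid cycle, and 2 of its 4 subunits fell. Sdhd, a membrane anchor (chr9:50596357-50603812), was at 123, 93.7 and 108 CPM untreated, 59.8, 73.1 and 70.3 with LPS, and 86.0, 91.4 and 93.6 with LPS and octanal. Its log2 fold change with LPS was -0.67 ± 0.12 with the lowest adjusted p of all members, 0.00474. Sdhb, the iron-sulphur subunit, was at 102, 65.4 and 72.7 CPM untreated and 57.4, 54.6 and 58.7 with LPS (-0.49 ± 0.15, adjusted p = 0.0387). The groups did not overlap, though the value was -0.32 without untreated replicate 1. The second anchor, Sdhc, had -0.33 ± 0.19 and the flavoprotein Sdha, which oxidises succinate, had -0.11 ± 0.09, neither called (adjusted p = 0.201 and 0.404).

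Complex III, the cytochrome bc1 complex, had 2 of 8 nuclear members lower, both small subunits beside the quinone-binding core. Uqcrb was at 34.1, 24.7 and 29.9 CPM untreated, 15.8, 16.3 and 20.3 with LPS, and 23.3, 25.8 and 26.2 with LPS and octanal. The LPS libraries were the lowest 3 of the 9, and the log2 fold change with LPS was -0.76 ± 0.15 (adjusted p = 0.00805). Uqcrq fell by 0.56 (adjusted p = 0.0465), and its log2 fold change was -0.37 without untreated replicate 1. The large core proteins Uqcrc1 and Uqcrc2 had -0.06 ± 0.10 and -0.05 ± 0.10, and the Rieske iron-sulphur protein Uqcrfs1 had -0.23 ± 0.11, none called. Uqcrh, the hinge protein and the complex III member of highest FPKM, had -0.10 ± 0.08.

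Complex IV, cytochrome c oxidase, had 5 of 14 tested nuclear members lower and 1 higher, with the lower calls spread over subunits that surround the catalytic core. Cox6c was at 48.7, 32.2 and 31.3 CPM untreated and 22.7, 24.5 and 24.1 with LPS (-0.66 ± 0.17, adjusted p = 0.0194). Cox6b1, which faces the intermembrane space, was at 61.1, 45.6 and 44.9 CPM untreated and 33.1, 34.4 and 35.8 with LPS (-0.55 ± 0.13, adjusted p = 0.0148). Neither gene's groups overlapped. Cox7b, Cox5b and Cox4i1 fell by 0.55, 0.42 and 0.36 on the log2 scale, with adjusted p between 0.0244 and 0.0318, and without untreated replicate 1 Cox7b had -0.36. Ndufa4, first assigned to complex I and now placed in complex IV, had -0.45 ± 0.18 (adjusted p = 0.0841).

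The 1 nuclear member that rose was Cox7a2l (chr17:83501918-83517330), a relative of Cox7a2 that sits in supercomplexes and joins complex III to complex IV. It was at 93.8, 114 and 112 CPM untreated, 134, 138 and 128 with LPS, and 104, 110 and 102 with LPS and octanal. Its 3 LPS libraries were the highest of the 9, and the log2 fold change with LPS was 0.32 ± 0.10 (adjusted p = 0.0316). Leaving out any of 7 single libraries ended this call, and without untreated replicate 1 the value was 0.21.

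Complex V, the ATP synthase, had 4 of 16 nuclear members lower and all 16 negative, with a median of -0.31. The calls were Atp5l and Atp5j2, small subunits of the membrane part, Atp5f1, the b subunit of the peripheral stalk, and Atp5c1, the gamma subunit that turns in the head. Atp5l was at 59.4, 43.5 and 52.1 CPM untreated and 32.5, 39.8 and 37.8 with LPS (-0.49 ± 0.13, adjusted p = 0.0231). Atp5f1 was at 171, 133 and 160 CPM untreated and 114, 112 and 118 with LPS (-0.43 ± 0.11, adjusted p = 0.0175). Both had LPS libraries below every untreated one. Atp5j2 and Atp5c1 fell by 0.42 and 0.40. By position in the enzyme, the 4 membrane accessory subunits had a median of -0.46, the 4 of the peripheral stalk -0.27, the 5 of the head -0.14 and the 3 genes of the c ring -0.10. Atp5b was at 666, 543 and 501 CPM untreated and 521, 495 and 534 with LPS, groups that overlapped (-0.14 ± 0.13), and Atp5a1, the alpha subunit, had -0.06 ± 0.14. The 3 c-ring genes Atp5g1, Atp5g2 and Atp5g3, which encode the same mature protein, had -0.09, -0.10 and -0.29, none called, and Atp5g1 and Atp5g2 changed sign in other settings.

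**Figure D3:**
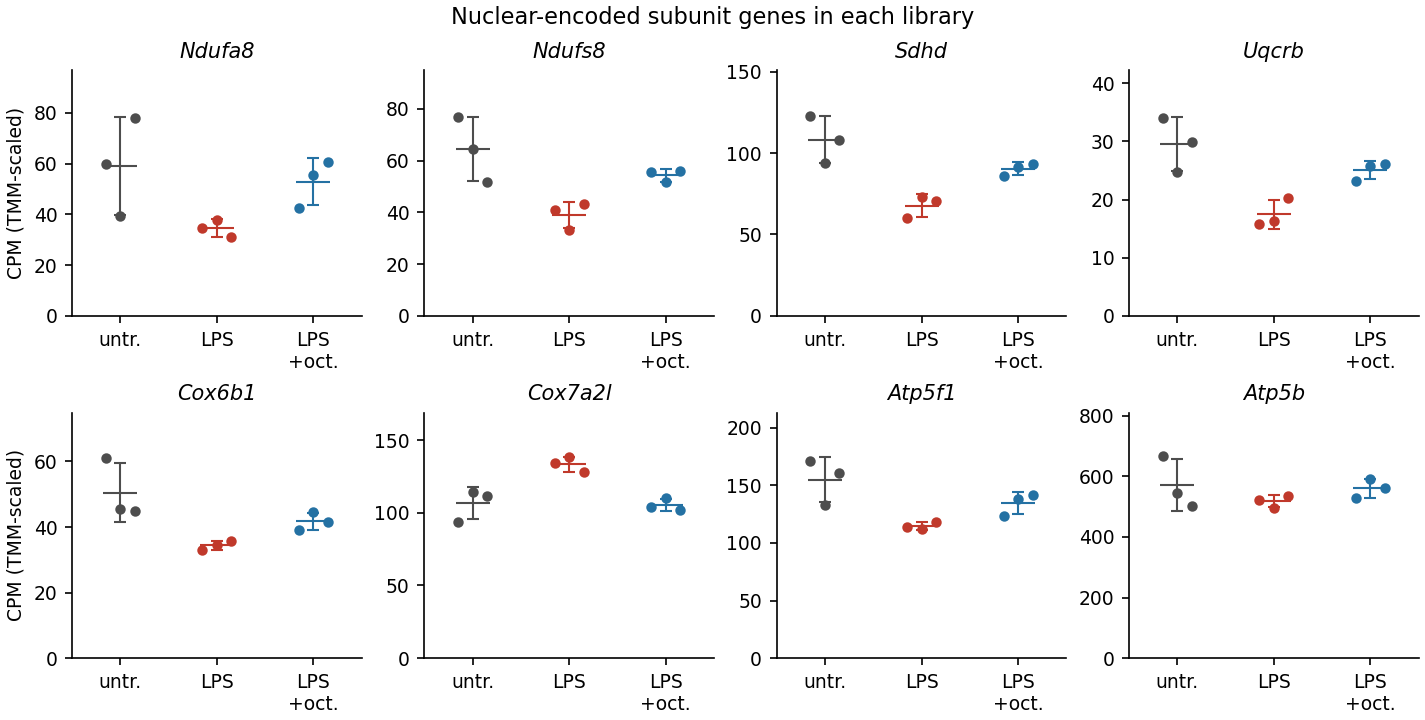
CPM of 8 nuclear-encoded subunit genes in each library of untreated, LPS and LPS with octanal cells; points are libraries, the long bar is the mean and the whiskers are 1 SD (n = 3). Sdhd, Uqcrb and Ndufs8 have their lowest 3 libraries in the LPS group, Cox7a2l its highest 3, and the Atp5b groups overlap.

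The nuclear calls rested on few libraries. Of the 20 lower calls, Ndufa1, Ndufb7, Ndufs8, Sdhd and Uqcrb held in every alternative run, which left out each of the 9 libraries and changed the normalization, filter, model or unit. The count of nuclear members called lower was 11 without untreated replicate 1, and 5, 8 and 6 without LPS replicates 1, 2 and 3. Fewer genes of any kind were called in those runs: 22.6%, 15.1%, 20.7% and 18.5% of all genes, against 32.8% with all 9 libraries. DESeq2 called 31 nuclear members lower and 10 mitochondrial genes higher, with 40.2% of all genes called. edgeR on the 6 libraries of these groups alone called 13 and 1, with 26.1% of all genes called. The direction of the set did not depend on untreated replicate 1, but its size did, with a median of -0.17 without that library. Centred on its mean over the 9 libraries, the median nuclear member was at 0.40 in untreated replicate 1 on the log2 scale, 0.01 and 0.00 in replicates 2 and 3, -0.16, -0.17 and -0.12 in the LPS libraries, and -0.05, 0.10 and -0.01 with LPS and octanal. The LPS libraries were the lowest 3 and lay close together. Transcripts of up to 1000 exon bases had a median log2 fold change of -0.40 (18 nuclear members) against -0.28 for longer ones (60), while the tested genes with an annotated length had -0.01 in both classes (349 and 13098 genes).

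The mitochondrial genes are transcribed as long precursors from both strands and cut at the transfer RNAs between them. Neighbours overlap in places, and mt-Atp8 and mt-Atp6 are translated from 1 shared transcript. Their reading frames share 43 bases, chrM:7927-7969, shown with the start codon of mt-Atp6 in capitals because counts of fragments there cannot be assigned to 1 gene.
mt-Atp8 and mt-Atp6 overlap, plus strand: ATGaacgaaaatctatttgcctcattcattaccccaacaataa
The mt-Nd4l and mt-Nd4 frames share 7 bases, and mt-Nd5 and mt-Nd6, on opposite strands, share 14.

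The 13 mitochondrial genes took 2.20%, 3.99% and 2.37% of all counts in untreated replicates 1, 2 and 3, 4.12%, 7.66% and 4.31% with LPS, and 2.31%, 3.05% and 3.10% with LPS and octanal. Every LPS library was above every other library. The 95% Wilson intervals of these shares were at most 0.0187 percentage points wide and cover counting error only, so the spread between libraries sets the precision. The 80 nuclear members took 0.548%, 0.463% and 0.411% untreated, 0.434%, 0.415% and 0.434% with LPS, and 0.437%, 0.452% and 0.419% with octanal, and these ranges overlapped. The ratio of mitochondrial to nuclear subunit counts within a library, which needs no scaling, was 4.01, 8.61 and 5.75 untreated, 9.47, 18.4 and 9.93 with LPS, and 5.28, 6.74 and 7.40 with octanal. The difference in the mean log2 ratio was 1.04 for LPS minus untreated (pooled SD 0.54) and -0.91 for LPS with octanal minus LPS (pooled SD 0.42). Without any 1 library these differences ranged from 0.73 to 1.32 and from -1.08 to -0.60.

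**Figure D4:**
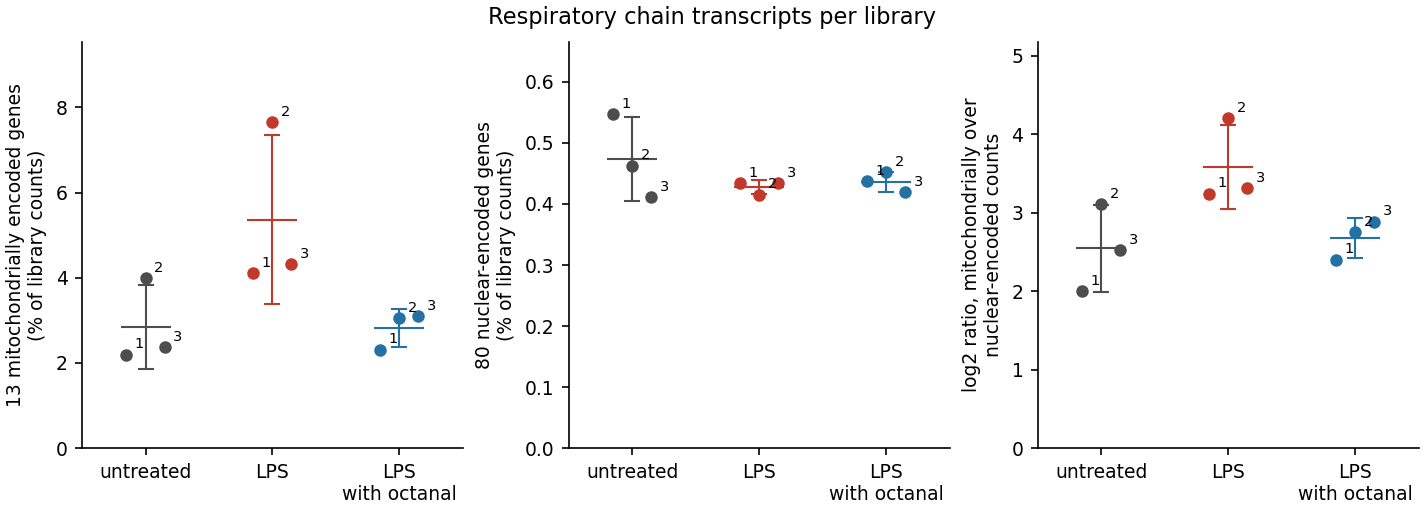
Share of each library's counts in the 13 mitochondrially encoded genes (left), in the 80 nuclear-encoded members (middle), and the log2 ratio of the 2 (right); numbers mark replicates, the long bar is the mean and the whiskers are 1 SD (n = 3). The mitochondrial share is 4.12% to 7.66% with LPS and at most 3.99% in the other libraries, while the nuclear shares overlap.

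With LPS the calls among mitochondrial genes were both ATP synthase genes and 2 of the 7 complex I genes. mt-Atp8 was at 278, 370 and 323 CPM untreated, 525, 970 and 536 with LPS, and 338, 425 and 371 with LPS and octanal. The groups did not overlap, and the log2 fold change with LPS was 1.06 ± 0.24 (adjusted p = 0.0126). mt-Atp6, the proton channel subunit, was at 1425, 3087 and 1797 CPM untreated and 3384, 7681 and 3800 with LPS (1.24 ± 0.40, adjusted p = 0.0435). mt-Nd2, in the membrane arm of complex I, was at 971, 1578 and 1143 CPM untreated and 1971, 3846 and 1912 with LPS (1.07 ± 0.33, adjusted p = 0.0355). mt-Nd4l had the smallest change of the 4, from 178, 187 and 173 CPM to 229, 309 and 212 (0.48 ± 0.15, adjusted p = 0.0358). In each of the 4 genes LPS replicate 2 was the highest library.

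The other 9 mitochondrial genes were not called. The core oxidase subunits mt-Co2 and mt-Co3 had log2 fold changes of 1.02 ± 0.42 and 1.08 ± 0.47, and mt-Co1, the subunit with the oxygen-reducing site, had 0.52 ± 0.29. mt-Cytb, the mitochondrial subunit of complex III, had 0.92 ± 0.37 (adjusted p = 0.0871). mt-Nd1, mt-Nd3 and mt-Nd4 had between 0.92 and 1.00. mt-Nd6, the single protein gene on the other strand, and mt-Nd5 had 0.49 ± 0.20 and 0.25 ± 0.17. These large fold changes came with large errors, and for these genes other than mt-Nd5 and mt-Nd6 both untreated replicate 2 and LPS replicate 2 were well above the rest of their groups.

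The genes thus did not move by equal amounts. mt-Co3, mt-Atp6 and mt-Co2 varied 5.67-, 5.39- and 4.68-fold between the highest and lowest library, mt-Nd5, mt-Nd4l and mt-Nd6 by 1.7-, 1.9- and 1.9-fold, and mt-Co1 by 2.38-fold. As shares of all mitochondrial subunit counts, mt-Co1 held 33.2% ± 4.32 (SD, n = 3) untreated, 26.7% ± 2.35 with LPS and 30.2% ± 2.70 with octanal. mt-Atp6 held 7.10% ± 0.859, 9.42% ± 0.770 and 8.35% ± 0.548. Its LPS range, 8.76% to 10.3%, was above its untreated range, 6.28% to 8.0%.

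**Figure D5:**
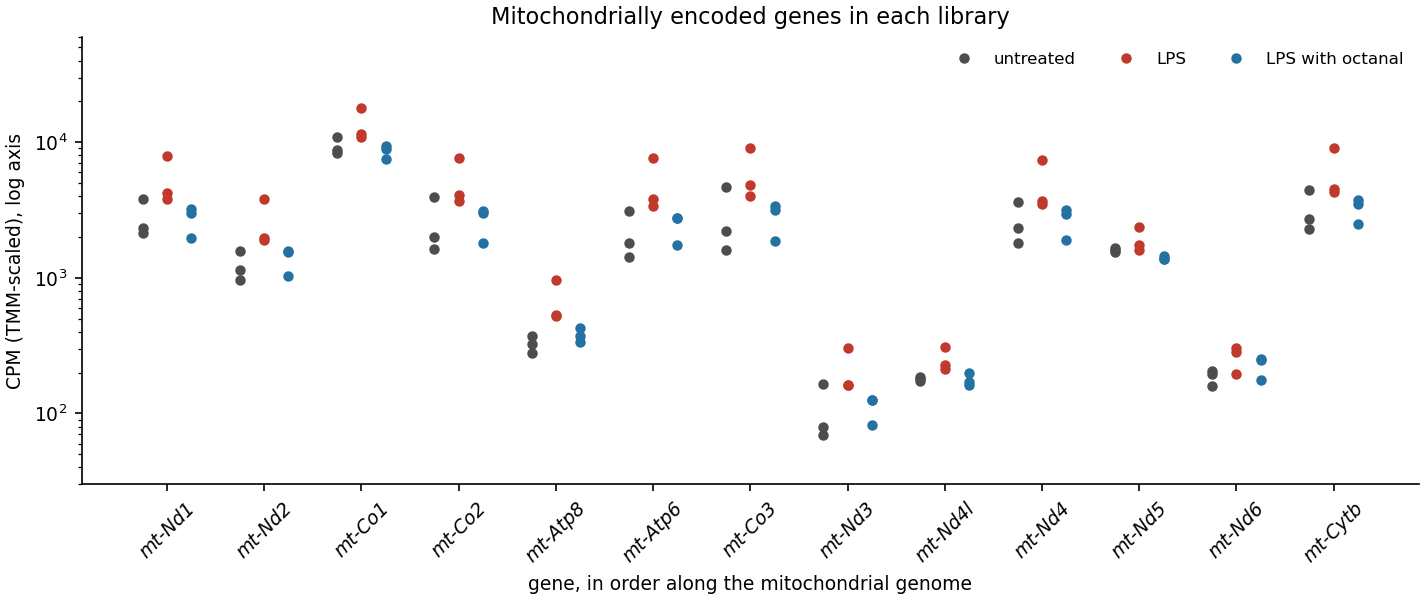
CPM on a log axis of the 13 mitochondrially encoded genes, in order along the mitochondrial genome, with 1 point per library of untreated, LPS and LPS with octanal cells. mt-Atp8 and mt-Nd2 have all LPS libraries above all untreated ones; the mt-Nd5 and mt-Nd6 groups lie close together.

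How many mitochondrial genes were called depended on the libraries: it was 1 without untreated replicate 1, untreated replicate 3, LPS replicate 1, LPS replicate 2, or replicate 2 or 3 of LPS with octanal, 2 without octanal replicate 1, and 9 without untreated replicate 2. mt-Atp8 was called in every one of these. The share of all genes called moved as well, from 15.1% without LPS replicate 1 to 35.8% without untreated replicate 2. It was 32.8% with all 9 libraries. Without LPS replicate 2 the median of the 13 genes was 0.51, and mt-Atp6, mt-Nd2, mt-Atp8 and mt-Nd4l had 0.74, 0.62, 0.67 and 0.26.

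LPS with octanal against LPS asks what followed when octanal was given after LPS priming. No member was called by edgeR, and neither was any of the 15447 genes (0%), although 22.3% of them had an unadjusted p below 0.05. With that unadjusted threshold 16 nuclear members were higher and 1 lower (20.5% and 1.28%, against 13.6% and 8.69% of all genes), and 11 of the 13 mitochondrial genes were lower with 0 higher. The nuclear median was 0.20, with 60 of 78 positive, and the mitochondrial median was -0.87, with all 13 negative, or -0.43 without LPS replicate 2. Of all genes 45.4% were positive and 54.6% negative, and the median was -0.05. Of the nuclear members, 38 had all 3 octanal libraries above all 3 LPS libraries (48.7%, against 18.3%), and 12 of 13 mitochondrial genes had them all below (92.3%, against 19.9%). This comparison shares the LPS libraries with LPS against untreated, so that opposite signs in both are not independent.

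Among nuclear members the lowest p in each complex belonged to Ndufa1, Sdhd, Uqcrb, Cox7a2l and Atp5l. Ndufa1 was at 10.3, 9.63 and 11.6 CPM with LPS and 15.3, 16.6 and 15.7 with octanal (0.60 ± 0.15, adjusted p = 0.0747). Sdhd and Uqcrb had 0.42 ± 0.12 and 0.52 ± 0.15 (adjusted p = 0.102 and 0.108), Atp5l had 0.38 ± 0.13, and Cox7a2l had -0.34 ± 0.10 (adjusted p = 0.0988). In all 5 the octanal libraries did not overlap the LPS libraries. The 5 were chosen by their p in this comparison, so this adds no support. Among mitochondrial genes mt-Atp8 had -0.84 ± 0.24 (adjusted p = 0.103) and mt-Nd4l -0.50 ± 0.15 (adjusted p = 0.111), and without LPS replicate 2 they had -0.44 and -0.27. Other models made calls here. DESeq2 called 9 members, against 11.6% of all genes: Cox7a2, Ndufa1, Ndufb7, Ndufs8, Sdhd, Uqcrb and Uqcrq higher, and mt-Atp8 and mt-Nd1 lower. edgeR on the 6 libraries alone also called 9, against 9.27% of all genes: 8 nuclear members higher, Cox7a2l lower and 0 mitochondrial genes.

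LPS with octanal against untreated cells compares the end point with the start. No member was called, against 8.67% of all genes (2.63% higher and 6.03% lower). The nuclear median was -0.13, with 69 of 78 negative, and the mitochondrial median was 0.05, with 8 of 13 positive, where 50.6% of all genes were negative and 49.4% positive. Without untreated replicate 1 these medians were -0.02 and -0.14. The lowest adjusted p was 0.0714, for Ndufb11, an accessory subunit of complex I, with a log2 fold change of -0.43 ± 0.13, and DESeq2 called that gene, against 18.2% of all genes. Ndufa4, Sdhd, Uqcrc2 and Atp5f1, the lowest p in the other complexes, had -0.45, -0.26, -0.20 and -0.20.

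Genes that serve the respiratory chain without being subunits of it were counted by list, with LPS against untreated, where 17.6% of all genes tested fell and 15.2% rose. Of 17 electron carriers, entry enzymes and membrane transporters, 7 fell and 0 rose, and their median was -0.37, against 0.01 for all genes. Chdh, which passes electrons from choline to the chain, was at 16.2, 10.9 and 20.6 CPM untreated, 1.49, 3.32 and 2.41 with LPS, and 5.01, 6.63 and 11.4 with octanal, and its log2 fold change with LPS was -2.73 ± 0.41 (adjusted p = 0.00249). The outer-membrane channels Vdac1 and Vdac2 fell by 0.73 and 0.63, the electron transfer flavoprotein subunits Etfb and Etfa by 0.91 and 0.57, the ADP/ATP carrier Slc25a5 by 0.59 and Ucp2 by 0.54. Of 20 citric acid cycle and pyruvate entry genes (median -0.29), 3 fell, a share below that of all genes: Mpc2, a subunit of the pyruvate carrier, by 0.77, Mdh2 by 0.55 and Cs, citrate synthase, by 0.31. Of 50 assembly factors (median -0.03), 4 fell and 2 rose, both smaller shares than those of all genes. Cmc2, Pet100, Coa4 and Cox15 fell, all factors of complex IV, while Cox20, of the same complex, and Tmem70, of complex V, rose.

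Of 20 biogenesis factors, 4 rose and 0 fell, with a median of 0.29, and 15.2% of all genes rose, so the share that rose was near the background. Polrmt, the mitochondrial RNA polymerase, was at 37.7, 38 and 29.4 CPM untreated and 58.0, 48.1 and 49.9 with LPS (0.57 ± 0.13, adjusted p = 0.0127). Tfam, which packages and activates mitochondrial DNA, had 0.47 ± 0.12 (adjusted p = 0.0172), the single-strand binding protein Ssbp1 had 0.42 and Yy1 had 0.36. The Yy1 call was lost in 15 of 18 alternative runs, and its value was 0.21 without untreated replicate 1. Of 19 RNA processing genes (median 0.10), Ptcd2, Trmt10c, Fastkd3 and Ptcd3 rose, with log2 fold changes of 0.34 to 0.48, and 0 fell, again near the 15.2% of all genes that rose. Of 78 mitochondrial ribosomal proteins (median -0.13), 7 fell, led by Mrpl51 with -0.71 ± 0.19, and 1, Mrpl58, rose, both smaller shares than the 17.6% and 15.2% of all genes. Of the named calls with LPS in these lists, Chdh, Etfb, Vdac1, Mpc2, Ptcd2 and, from the inhibitor list, AA467197 held in every alternative run, as did Acod1 with octanal against untreated. Vdac2, Mdh2, Polrmt and Tfam were lost without LPS replicate 1, and the other calls named from these lists were lost without 1 or more of the 9 libraries. The Tmem70 and Ptcd3 calls were lost whichever of the 9 was left out, and in 15 and 13 of 18 alternative runs. With octanal against LPS no gene of these lists was called by edgeR on the 9 libraries. Against untreated, Cox17, a copper chaperone of complex IV, rose by 0.60 while Etfb and Ucp2 fell by 0.88 and 0.62.

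The 6 inhibitors and replacement subunits moved both ways. AA467197, the Nmes1 gene whose protein takes the place of Ndufa4 in inflamed cells, was at 212, 220 and 520 CPM untreated, 58.9, 92.6 and 79.2 with LPS, and 185, 198 and 305 with octanal. It fell by 2.05 on the log2 scale with LPS (adjusted p = 0.00541), and with octanal against LPS it had 1.58 ± 0.37 (adjusted p = 0.0725). Acod1, which makes itaconate, an inhibitor of succinate dehydrogenase, was at 283, 118 and 212 CPM untreated, 463, 384 and 382 with LPS, and 652, 899 and 698 with octanal. It rose by 1.01 with LPS (adjusted p = 0.0263) and by 1.88 with octanal against untreated (adjusted p = 0.00863), and with octanal against LPS it had 0.87 ± 0.28 (adjusted p = 0.128). In that last comparison both AA467197 and Acod1 were called by DESeq2 and by edgeR on the 6 libraries alone, and Acod1 also by edgeR without untreated replicate 2. Ppif, the cyclophilin of the permeability pore, rose by 0.48, and Atpif1, the inhibitor of ATP synthase hydrolysis, had -0.60 ± 0.22 (adjusted p = 0.0628).

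Marker lists moved with the treatment as well. With LPS 17.6% of all genes tested were called lower and 15.2% higher. The 13 monocyte markers, all detected, summed to 5893 to 13650 CPM untreated, 2394 to 3479 with LPS and 4719 to 7270 with octanal. With LPS 6 of them were lower and 1 was higher. The 15 neutrophil markers summed to 14111 to 27676 CPM, 1940 to 2447 and 6133 to 13803, and with LPS 13 of 15 fell. The 15 macrophage markers summed to 5407 to 9065, 1038 to 1722 and 2834 to 3721 CPM, with 8 lower with LPS. Although this sum was higher with octanal than with LPS, their median log2 fold change in that comparison was -0.25. With octanal against untreated their median was -1.95, with 9 lower and 1 higher, against 6.03% and 2.63% of all genes. The 11 T cell markers summed to 197 to 1256, 2353 to 2919 and 1331 to 2062 CPM, and 11 of 11 rose with LPS. The 10 NK cell markers summed to 8.20 to 29.4, 46.2 to 56.4 and 24.6 to 38.8 CPM, with 3 higher with LPS. The 9 erythroid markers summed to 758 to 1568, 269 to 755 and 360.5 to 664 CPM, with 1 lower. The 10 B cell markers summed to 108 to 363, 154 to 205 and 86.6 to 117 CPM, with 1 higher although their median log2 fold change with LPS was -0.74. The shares called in the erythroid and B cell lists were below those of all genes. None of the markers in the table was at 0 over all libraries. Their part in the changes of the respiratory chain genes was not tested.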

How the data were processed

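RNA from 9 libraries of spleen-derived monocytes was sequenced. The authors deposited a whole-number count per gene and library, not normalized, and FPKM values scaled by length and depth, per the file headers. The submitters' processing notes name the genome build GRCm38, and the sources used here do not give the aligner, the counter, the handling of reads shared with processed pseudogenes or with nuclear copies of mitochondrial DNA, or the use of strand. Members and lists were chosen with earlier results of these data known. 10 lines held no values and were left out. In R 4.3.3, edgeR 4.0.16 fitted all 9 libraries with 1 mean per group after filterByExpr and TMM. DESeq2 1.42.0 and limma 3.58.1, on log2(FPKM + 1), were alternatives, besides other filters and scalings, a replicate block and leaving out each library. Coordinates and lengths came from GENCODE, and all 93 members matched.

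The genes named are, per complex and comparison, the 2 called members of largest change with at least 10 CPM (or else the 1 of lowest p), the 13 mitochondrial genes, called members against the trend, the highest by FPKM, the paralogue sets, and up to 4 genes of lowest p per list; others were named after their values were seen. On counts simulated for LPS against untreated with 15447 genes, 47 of 100 2-fold and 87 of 100 4-fold changes were called, with 5 false calls. The changed genes were drawn from those with higher counts, and no other gene was changed. In the data 32.8% of genes were called, so these rates do not give the sensitivity of that comparison.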

Additional observations from a re-analysis of the deposited data

How the results depend on the processing

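With LPS against untreated, 25 members were called (20 nuclear lower, 4 mitochondrial higher, and Cox7a2l). The total was 14 with the 6 libraries of the 2 groups alone and 42 by DESeq2. Nuclear members called lower were 13 with 6 libraries, 31 by DESeq2 and 13 by limma on log2 FPKM, and mitochondrial members called higher were 1, 10 and 4. Without 1 library, the total ranged from 6 to 39, the nuclear count from 5 to 29 and the mitochondrial count from 1 to 9. The share of all genes called moved as well. It was 32.8% in the main fit, 26.1% with 6 libraries, 40.2% by DESeq2, 36.1% by limma and 15.1% to 35.8% without 1 library. Octanal against LPS gave 0 calls, but 9 with 6 libraries and 9 by DESeq2, where 9.27% and 11.6% of all genes were called. Octanal against untreated gave 0 (8.67% of all genes), but 1 with the filter at 10 CPM (12.4%) and 1 by DESeq2 (18.2%). Without a library it gave 0 to 1, with 1.88% to 13.5% of all genes called. With group means taken out, same-numbered libraries of different groups correlated at -0.09 to 0.18 over all genes, and other pairs at -0.15 to 0.21. With so few libraries this cannot settle whether the samples were paired. With the replicate block, 23 members were called with LPS, where 27.6% of all genes were called. They were 12 nuclear lower, 10 mitochondrial higher (4 without the block) and Cox7a2l. The block gave 0 member calls in the other comparisons.

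Signs changed for Atp5g1 with LPS (0.20 without untreated replicate 2, 0.06 without LPS replicate 2, 0.39 by limma), Atp5g2 (0.028 without untreated replicate 1, 0.0077 by limma), Cox6b2 (-0.04, -0.08 and -0.46 without untreated replicates 2 and 3 and LPS replicate 1), Mrpl17 and Uqcrh (0.31 and 0.0103 by limma), and AA467197 with octanal against untreated (0.11 without untreated replicate 3). Leaving out 1 library, the ranges of these were -0.39 to 0.20 for Atp5g1, -0.23 to 0.028 for Atp5g2, -0.46 to 0.32 for Cox6b2 and -0.74 to 0.11 for AA467197. The cause was not tested. Cox6a2, Cox6b2 and Ndufs5 are limited by low or scattered counts.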
